A study of Danio rerio with 4 samples.

Results

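ATP-binding cassette (ABC) transporters and the enzymes of xenobiotic metabolism were examined in 2 populations of adult zebrafish kidney cells. The set holds 95 of the 8793 genes measured. The rule takes every measured gene whose symbol belongs to these families. They hold 14 ABC genes, 48 cytochromes P450 (CYP), 8 genes with a gst symbol, for glutathione S-transferase (GST), and 1 microsomal glutathione S-transferase (MGST). The others are 1 UDP-glucuronosyltransferase (UGT), 8 sulfotransferases (SULT), 12 aldehyde dehydrogenases (ALDH), the quinone reductase nqo1 and 2 epoxide hydrolases (EPHX).

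The kidney is the blood-forming organ of the adult fish. Cells of low forward and side scatter, the lymphoid gate, had been stained with the DNA dye Hoechst and separated by its fluorescence into a side population, zSP, and a main population, zMP. A total of 20 fish went into 3 sorts, the lysates were pooled within each population, and each RNA pool was divided between 2 arrays. Both populations come from the same organ of adult fish. The labels give no age, strain or treatment, and the 2 arrays of a population repeat only the amplification, labelling and hybridization of 1 pool.

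A cell clears a foreign compound in steps. Cytochromes P450, aldehyde dehydrogenases, quinone reductase and epoxide hydrolases oxidize, reduce or hydrolyse it. Transferases then join it to glutathione, glucuronic acid or sulfate, and ABC transporters and other carriers move the product across membranes. Many enzymes of these families also have duties inside the body, such as making steroids, bile acids, retinoic acid or amino acids. A side population is defined by dye efflux, which in mammalian blood stem cells depends largely on the transporter ABCG2, and high aldehyde dehydrogenase activity is another property used to enrich for such cells.

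The transporters most directly linked to dye efflux were not analysed here. None of abcg2a, abcg2b, abcg2c, abcg2d and abcb4 had a probe set annotated to it alone, and neither had the drug exporters abcc1 and abcc2. The ABC genes that were measured belong to subfamilies A to F.

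Values are expression levels on the log2 scale after RMA, which removes background, brings the arrays to 1 distribution and condenses each probe set into 1 number. A difference is the zSP mean minus the zMP mean, and the range in brackets spans the 4 pairs of a zSP with a zMP array. It is a technical error. With 1 RNA pool per population there is no biological replicate and no test between the populations. A gene was called when all 4 pairs differed by at least 1, that is 2-fold, in 1 direction. The blank range was taken from 49 control probe sets for sequences that zebrafish cells do not transcribe. Its top was the highest population mean among them, 6.15, and a level at or below it was taken as no evidence of the transcript. That mean came from zMP, and the highest in zSP was 5.27. The top of 6.15 was applied to both populations.

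The arrays of a pool correlated at 0.943 for zSP and 0.952 for zMP (Pearson's r across 15502 probe sets, which are not independent replicates), and arrays of different pools at 0.868 to 0.875. Over the blank controls the median difference was -0.38, 48 of the 49 being lower in zSP, and the median difference of all genes was -0.20. For the GAPDH controls, 3′ signal exceeded 5′ signal by 3.94 in zSP and 3.09 in zMP. Of all genes, 7.85% were called as higher in zSP, and 2.89% as higher in zMP. Leukocyte markers were above the blank range in both populations in 12 of 14 measured genes, and 5 of the 14 were called higher in zMP. Of 20 measured kidney epithelium markers, 15 were called higher in zSP. The mean level of the 20 was 7.54 and 7.05 on the zSP arrays against 3.94 and 3.83 on the zMP arrays. In the other direction, slc12a3, pax8 and hnf4a were lower in zSP in all 4 pairs. They differed by -0.93, -0.78 and -0.47, within the blank range. Of 9 measured stroma markers 7 were called higher in zSP. Their mean levels were 7.55 and 7.20 on the zSP arrays against 4.23 and 4.40 on the zMP arrays, over all 9. In the other direction fn1a was lower in zSP in all 4 pairs, with a difference of -0.32 within the blank range. Of 10 measured thrombocyte and endothelium markers 5 were called higher in zSP. The mean levels of the 10 were 5.60 and 5.55 on the zSP arrays against 4.35 and 4.07 on the zMP arrays. The thrombocyte gene gp1bb was lower in zSP in all 4 pairs, with a difference of -0.19 within the blank range. In 3 others, among them itga2b at 0.17 and tie1 at -0.17, the pairs were mixed. Of 7 measured red cell markers only the globin hbaa1 was called, higher in zMP, with a difference of -4.24. The other 6 were within the blank range in both populations. Among them gata1a went the other way, higher in zSP in all 4 pairs, at 1.19 (0.57 to 1.82). The mean levels of the 7 were 2.76 and 3.00 on the zSP arrays against 3.48 and 3.63 on the zMP arrays, and hbaa1 weighs heavily in them. Of 16 measured markers of hepatocytes and intestine 1 was called, the retinol carrier rbp4, and 15 were within the blank range in both populations. The part of these other cells in the differences given here was not tested, and in pooled cells more cells of a type and more RNA per cell cannot be told apart.

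As a whole the set was called about as often as the rest of the array. Of the 95 genes, 6 were called higher in zSP, which is 6.32%, where 7.85% of all genes were. Only gstm.1 was called higher in zMP, 1.05% of the set, where 2.89% of all genes were. Over all genes these are 690 and 254 calls, and cyclic loess turned them into 821 and 165. The median difference was -0.21 (-0.33 to -0.08), against -0.20 over all genes. All 4 pairs lay above 0 in 23 genes of the set (24.2%, against a background of 21.7%) and below 0 in 40 (42.1%, against a background of 41.0%). Each of these shares lies near its background.

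Most of these genes had low levels. In 19 of the 95 at least 1 population mean exceeded the blank range, which is 20.0% of the set against 33.2% of all genes. The other 76 lay within it in both, and their median difference was -0.22, where all genes within the range had -0.24 and the blank controls -0.38. Among the 19, 4 were called higher in zSP (21.1%, against 16.9% of the 2921 genes above the range) and 1 higher in zMP (5.26%, against 6.57%). All 4 passed the range through zSP alone, the population where they are high. The filter itself therefore favours such calls, and these shares say nothing more about the set. With the brightest blank control left out, 29 genes of the set passed the range.

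**Figure D1:**
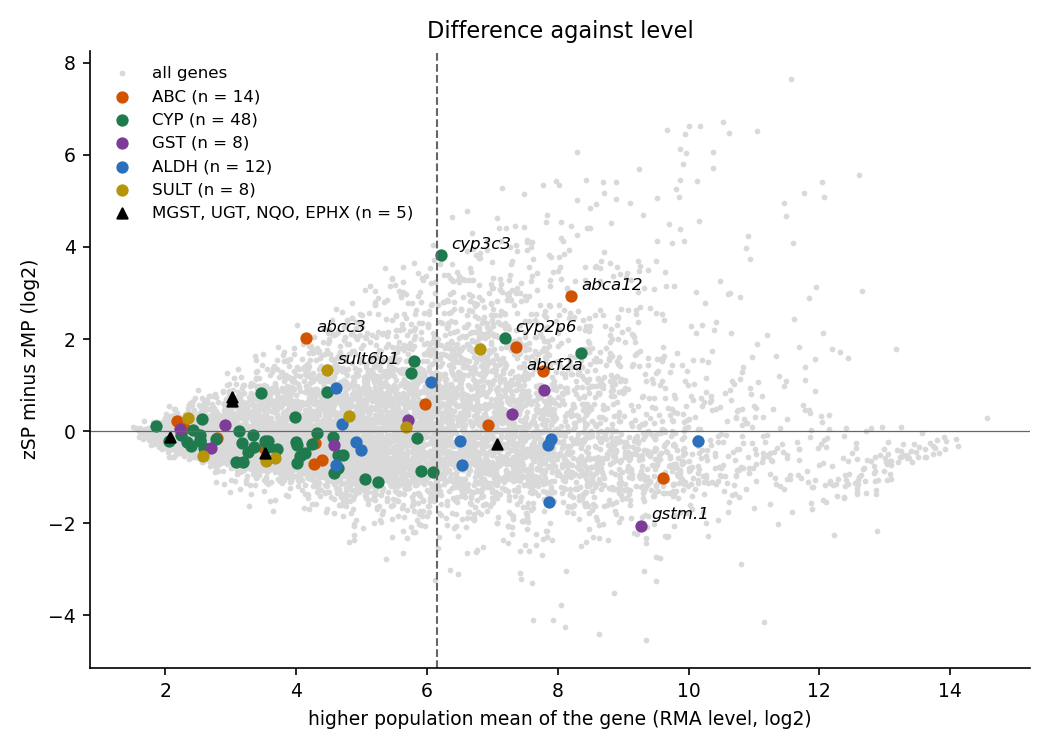
The horizontal axis is the higher of the 2 population means of a gene and the vertical axis the zSP minus zMP difference, both on the log2 scale. Grey points are all 8793 genes, coloured points the 95 transporter and enzyme genes by class, and the dashed line is the top of the blank range at 6.15. Most coloured points lie left of the line, and the 7 named ones were called.

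**Figure D2:**
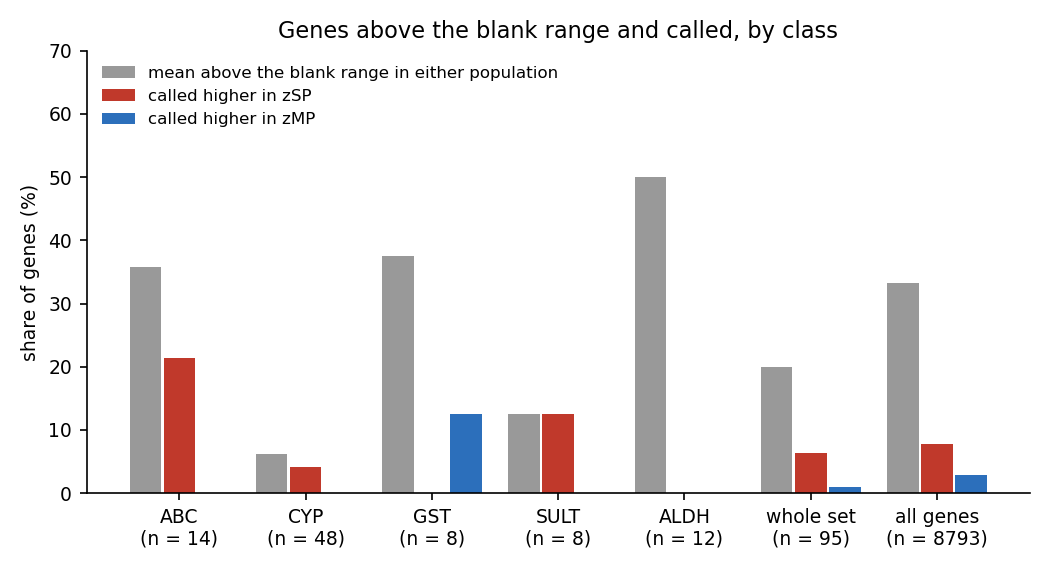
Bars give the share of genes, in percent, that passed the blank range in at least 1 population (grey), were called higher in zSP (red) or were called higher in zMP (blue). Cytochromes P450 had 6.25% above the blank range against 33.2% of all genes, and the whole set had 6.32% called higher in zSP against 7.85%.

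Among the ABC transporters, 3 of 14 were called, all of them higher in zSP, where 7.85% of all genes were, and the class median was 0.10 (0.06 to 0.13), against -0.20 over all genes. The 3 belong to different subfamilies and have different duties, as given with each. The class had 5 genes above the blank range in either population, 3 of them in both.

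The lipid transporter abca12, known in human for carrying lipids into the granules of the skin barrier, had levels of 8.54 and 7.87 on the zSP arrays, against 4.02 and 6.54 on the zMP arrays. Both zSP arrays lay above both zMP arrays, and the zMP arrays were far apart. The difference was 2.92 (1.33 to 4.51), and 1.67 without zMP replicate 1. Its zMP mean lay within the blank range, so the size of the difference is uncertain.

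The organic anion exporter abcc3, which in mammals moves bile salts and glucuronides out of cells, had levels of 4.57 and 3.72 on the zSP arrays, against 2.31 and 1.94 on the zMP arrays. All 4 values lay within the blank range, so its call is no evidence of the transcript in either population. Some cell type markers given above were higher on the same zSP arrays in all 4 pairs, as were 21.7% of all genes. They were 17 of 20 for kidney epithelium, 8 of 9 for stroma and 6 of 10 for thrombocytes and endothelium. Their part in this difference was not tested.

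The gene abcf2a belongs to a subfamily without membrane-spanning parts, whose proteins act in the cytosol rather than as transporters. It had levels of 6.98 and 7.75 on the zSP arrays, against 5.72 and 5.37 on the zMP arrays. The groups did not overlap, and the difference was 1.82 (1.26 to 2.39), with the zMP mean within the blank range. Quantile normalization applied once more ended this call, at 1.6.

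The other ABC proteins without membrane-spanning parts were not called. The ribosome recycling factor abce1 was level, with 6.99 and 6.87 on the zSP arrays and 6.80 and 6.80 on the zMP arrays. The translation-associated abcf1 had 9.48 and 7.72 on the zSP arrays, against 9.81 and 9.42 on the zMP arrays. Its zSP aliquots were 1.76 apart, so the difference of -1.02 (-2.09 to 0.06) did not exceed their spread. With zSP replicate 1 left out it was -1.90 and called, and with zSP replicate 2 left out it was -0.13.

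The peroxisomal fatty acid transporter abcd3a had 8.23 and 7.33 on the zSP arrays, against 6.91 and 6.04 on the zMP arrays. The groups did not overlap, but the closest pair differed by 0.42 and the gene was not called, with a difference of 1.30. It was called at 1.75 without zSP replicate 2 and at 1.74 without zMP replicate 1, and was 0.85 without zSP replicate 1 and 0.87 without zMP replicate 2.

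Subfamily B, which includes the classical drug pumps of mammals, was represented by abcb3, abcb5 and abcb8. All 3 were lower in zSP in every pair, by 0.27 to 0.71, as were 41.0% of all genes and 40 of the 49 blank controls. None was called and all lay within the blank range. For abcb5, a relative of the multidrug pump of mammals, the levels were 3.40 and 3.72 on the zSP arrays, against 4.14 and 4.39 on the zMP arrays, a difference of -0.71 (-0.99 to -0.43). The cyclic nucleotide exporter abcc4 had 2.46 and 2.81 on the zSP arrays, against 2.88 and 2.69 on the zMP arrays, with a difference of -0.15 (-0.42 to 0.12). These values are no evidence of either pump in either population. The remaining uncalled ABC genes, abca3b, abca7, abcc10 and abcd4, lay within the range as well, with differences of 0.60, 0.22, -0.62 and 0.06.

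**Figure D3:**
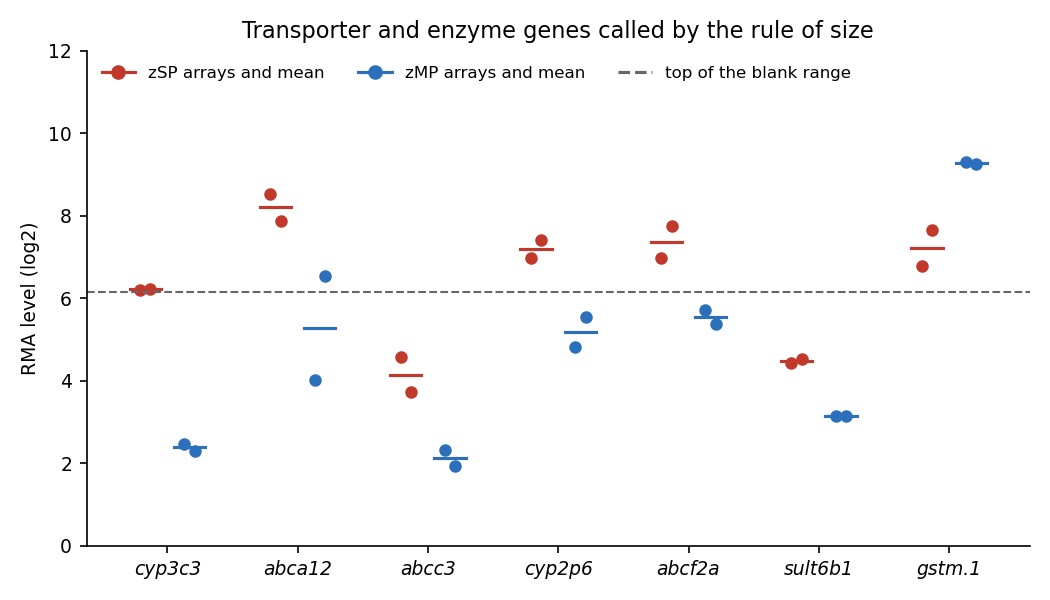
Each point is the RMA level (log2) of 1 array, red for zSP and blue for zMP, the short bars are population means and the dashed line is the top of the blank range at 6.15. In the 6 genes higher in zSP the zMP mean lies below the line, and in gstm.1 all 4 arrays lie above it.

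The cytochromes P450 were the largest class, and most were dim. Of 48, 45 stayed within the blank range on both means. Only 2 were called, both higher in zSP, which is 4.17% where 7.85% of all genes were. The class median was -0.22 (-0.36 to -0.18), and 26 of the 48 were lower in zSP in all 4 pairs, where 41.0% of all genes and 40 of the 49 blank controls were.

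Both called P450 genes belong to families 1 to 3, which in vertebrates hold most drug-metabolizing P450s. They are 2 of the 26 genes measured in these families, or 7.69%, near the 7.85% of all genes called higher in zSP. The median of the 26 was -0.20, as over all genes. The CYP3 gene cyp3c3, of a subfamily found in fish, had 6.21 and 6.22 on the zSP arrays, against 2.48 and 2.30 on the zMP arrays. The zSP arrays agreed closely and the difference was 3.83 (3.73 to 3.92), the only one of the 95 genes called at a size of 3-fold. The zSP mean of 6.21 stood just above the top of the blank range and the zMP mean of 2.39 well within it, so the size of the difference is uncertain.

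Its relative cyp3c1 lies near it in the gene table, with 1 protein-coding gene between them. The levels of cyp3c1 were 7.51 and 9.22 on the zSP arrays, against 6.94 and 6.38 on the zMP arrays. The groups did not overlap, but the zSP aliquots were 1.71 apart and the gene was not called. Its difference was 1.70 (0.57 to 2.84). It was 0.85 without zSP replicate 2, and the gene was called at 2.56 without zSP replicate 1 and at 1.98 without zMP replicate 1. A second probe set of cyp3c1 differed by 0.78. For the third CYP3 gene, cyp3a65, the sign was opposite. This CYP3A of the zebrafish gut differed by -0.91 (-1.09 to -0.73) within the blank range and was not called.

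The CYP2 gene cyp2p6, a relative of the human arachidonic acid epoxygenase CYP2J2, had 6.97 and 7.41 on the zSP arrays, against 4.81 and 5.56 on the zMP arrays. The difference was 2.01 (1.42 to 2.61), with the zMP mean within the blank range. Its measured subfamily relatives cyp2p8, cyp2p9 and cyp2p10 were not called and differed by -0.37, -0.31 and 0.83, all within the blank range. Over the 20 CYP2 genes the median was -0.20.

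Just outside the rule stood cyp2k22, with 5.47 and 6.13 on the zSP arrays, against 4.50 and 4.04 on the zMP arrays. Its closest pair differed by 0.97, and median centring or cyclic loess brought it over the threshold. Both means lay within the blank range. The dioxin-inducible cyp1a, the standard readout of the aryl hydrocarbon receptor, had 4.43 and 4.49 on the zSP arrays, against 3.51 and 3.73 on the zMP arrays. That difference of 0.84 (0.70 to 0.98) missed the size, although it was called at 1.15 after cyclic loess, and its levels are no evidence of the transcript.

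The 22 P450 genes of other families work mainly on steroids, sterols, bile acids, vitamins and fatty acids. None of them was called, where 10.7% of all genes were in either direction, and their median was -0.26. The head kidney of fish holds steroid-making tissue. The means of the steroid-making enzymes cyp11a1.1, cyp11c1 and cyp17a1 were within the blank range in both populations. Of these cyp11c1, which makes cortisol and 11-oxygenated androgens, came nearest to the top, with 5.09 and 5.30 on the zSP arrays and 5.74 and 6.43 on the zMP arrays. The retinoic acid hydroxylase cyp26b1 differed by -1.11 (-1.55 to -0.67) and the lanosterol demethylase cyp51 by -0.86 (-0.98 to -0.75), neither called. Other probe sets of cyp26b1 and cyp51 reached -0.28 and 0.12. The cholesterol 24-hydroxylase relative cyp46a1.4 had 6.48 and 5.03 on the zSP arrays, against 4.74 and 4.26 on the zMP arrays. Its difference was 1.25, with a closest pair of 0.29. The means of cyp26b1, cyp51 and cyp46a1.4 lay within the blank range in both populations, as did those of all 22 genes.

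Among the glutathione S-transferases, which attach glutathione to electrophiles, gstm.1 was the one gene of the whole set called higher in zMP. This mu-class enzyme had 6.79 and 7.66 on the zSP arrays, against 9.31 and 9.24 on the zMP arrays. The difference was -2.05 (-2.52 to -1.58), a 4.15-fold lower level in zSP. It was also the only called gene among the 13 that passed the blank range in both populations. Over all genes, whatever their level, 10.7% were called in either direction. Of 14 measured leukocyte markers, 5 were called in the same direction as gstm.1 on these arrays and 9 were not called. Their part in its difference was not tested.

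The pi-class enzyme gstp1.2 had 7.61 and 7.95 on the zSP arrays, against 6.90 and 6.89 on the zMP arrays. The groups did not overlap, but the difference of 0.88 (0.71 to 1.06) was not called, except at 1.06 without zSP replicate 1. The omega-class enzyme gsto2 had 7.04 and 7.57 on the zSP arrays and 6.83 and 7.05 on the zMP arrays, and its difference of 0.37 was smaller than the 0.52 between the zSP aliquots. The microsomal mgst3a, which acts on lipid hydroperoxides and leukotriene precursors in mammals, had 6.54 and 7.01 on the zSP arrays and 7.32 and 6.81 on the zMP arrays, so that the groups overlapped. The other 5 genes with a gst symbol, gstcd, gstk1, gsto1, gstt1a and gstt1b, lay within the blank range with differences between -0.37 and 0.25.

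Of the 12 aldehyde dehydrogenases 6 were above the blank range in at least 1 population. None was called in either direction, where 10.7% of all genes were. The class median was -0.23 (-0.60 to 0.10). The enzyme aldh9a1a.1, which oxidizes aminoaldehydes, had 9.99 and 9.85 on the zSP arrays and 10.28 and 10.00 on the zMP arrays. The mitochondrial aldh6a1 of valine breakdown had 7.79 and 7.66 on the zSP arrays and 8.09 and 7.70 on the zMP arrays. The lysine-degrading aldh7a1 had 7.44 and 7.68 on the zSP arrays and 8.05 and 7.65 on the zMP arrays. All these genes were close between the populations, with differences of -0.22, -0.17 and -0.29.

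The widest gap of the class was that of aldh18a1, which makes the proline precursor pyrroline carboxylate. It had 7.17 and 5.49 on the zSP arrays, against 7.90 and 7.82 on the zMP arrays. Both zSP arrays were lower, with a difference of -1.53 (-2.41 to -0.66), but their own gap was 1.67, and without zSP replicate 1 the gene was called at -2.37, against -0.70 without zSP replicate 2. In the opposite direction aldh8a1, an enzyme of the kynurenine pathway in mammals, had 6.02 and 6.10 on the zSP arrays, against 5.16 and 4.83 on the zMP arrays. Its difference of 1.07 (0.86 to 1.27) was not called, except at 1.23 without zMP replicate 1, and both means lay within the blank range.

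The retinoic acid maker aldh1a2, the ALDH1 member measured, had 3.58 and 5.82 on the zSP arrays and 5.02 and 4.08 on the zMP arrays. The fatty aldehyde enzyme aldh3a2a had 3.33 and 6.02 on the zSP arrays and 5.98 and 3.86 on the zMP arrays. In both genes the aliquots of 1 pool differed more than the pools did, so these arrays give no difference between the populations. In the whole set 16 genes had aliquots at least 1 apart in either pool (16.8%, against 26.7% of all genes).

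**Figure D4:**
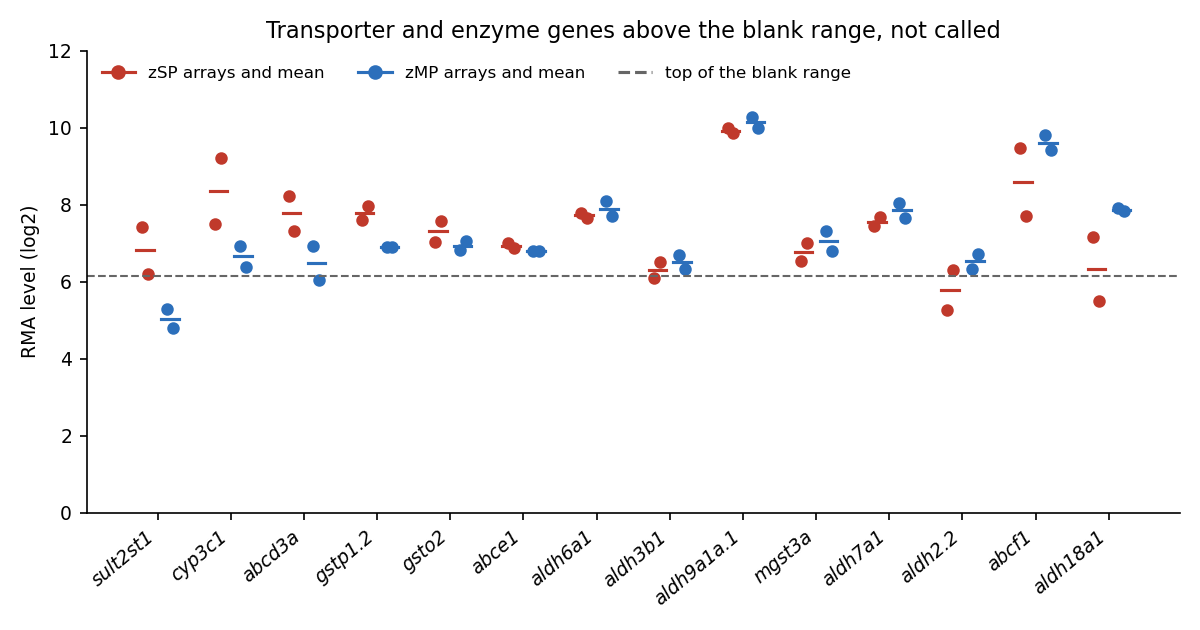
Points are RMA levels (log2) of single arrays for the 14 genes of the set that passed the blank range in at least 1 population and were not called, red for zSP and blue for zMP, with short bars for means and the dashed line at 6.15. From left to right the difference falls, from sult2st1 at 1.78 to aldh18a1 at -1.53.

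Of 8 sulfotransferases, only sult6b1 was called, higher in zSP as were 7.85% of all genes. It had 4.43 and 4.52 on the zSP arrays, against 3.14 and 3.15 on the zMP arrays. The aliquots agreed to within 0.09 and the difference was 1.33 (1.28 to 1.38), but both means lay within the blank range. The hydroxysteroid sulfotransferase sult2st1 was the only one above it, with 7.43 and 6.20 on the zSP arrays, against 5.29 and 4.79 on the zMP arrays. Its difference of 1.78 was larger, yet the closest pair differed by 0.91 and the gene was not called. It was called at 2.39 without zSP replicate 2 and at 2.03 without zMP replicate 1, and was 1.16 without zSP replicate 1. The neighbouring gene sult2st2 differed by 0.10 and the phenol sulfotransferase sult1st4 by 0.32, both within the blank range.

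The remaining enzymes were at background. The UDP-glucuronosyltransferase ugt2a1 had 2.06 and 3.97 on the zSP arrays and 2.42 and 2.13 on the zMP arrays, with an overlap between the groups, and it was called at 1.70 without zSP replicate 1 and was -0.22 without zSP replicate 2. The quinone reductase nqo1, a classical target of the oxidative stress factor Nrf2, had 1.88 and 1.99 on the zSP arrays and 2.32 and 1.80 on the zMP arrays. The epoxide hydrolases ephx1 and ephx5 differed by -0.47 and 0.65 with no call. For none of these 4 genes do the levels show a transcript.

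No called gene stood directly beside another measured gene of the set. With 1 protein-coding gene between them stood cyp3c3 and cyp3c1, cyp2p6 and cyp2p8, and abcc3 and sult2st2. In the gene table's order 17 of the 94 genes that could be placed stood directly beside another gene of the set, in 8 runs. None of these 17 was called, where 10.7% of all genes were in either direction. So few genes cannot show a link between position and calls. Of the 15 genes with several probe sets, 4 had probe sets of opposite sign, cyp17a1, cyp1c1, cyp51 and cyp8b1.1, and no called gene had a second probe set. A further 6 probe sets were annotated to several genes with at least 1 of these families among them, and none was called.

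Genes outside these families that take part in the same pathways gave a mixed picture. Sensors and regulators of xenobiotic response had no call among 11 measured of 24 listed, where 10.7% of all genes were called. Their median was -0.21. The master regulator of antioxidant genes nfe2l2a, which encodes Nrf2, had 7.39 and 7.42 on the zSP arrays, against 6.10 and 6.44 on the zMP arrays, and its difference of 1.13 (0.94 to 1.32) fell short of the rule. The oxysterol receptor nr1h3 fell short at 1.69 (0.99 to 2.39), and the dioxin receptor ahr2 differed by 0.34 (-0.34 to 1.03) with overlapping groups. The zMP mean of nr1h3, 5.26, lay within the blank range, so the size of its difference is uncertain. These 3 genes were picked after their values were seen, as the ones above the blank range in at least 1 population.

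Among redox partners, 1 of 7 was called (10.7% of all genes were, in either direction), the electron donor cyb5a, with 6.33 and 6.63 on the zSP arrays, against 5.32 and 4.14 on the zMP arrays. The difference was 1.75 (1.02 to 2.49), it was 1.17 without zMP replicate 2, and the call ended, at 1.6, with quantile normalization applied once more. The zMP mean of cyb5a lay within the blank range, so the size of the difference is uncertain. The gene pora, for the P450 reductase that feeds all microsomal P450s with electrons, was within the blank range and differed by -0.51 (picked after its values were seen).

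Among other oxidizing, reducing and hydrolysing enzymes, 1 of 16 was called (10.7% of all genes were, in either direction), the aldose reductase gene akr1b1.2. It had 7.59 and 7.61 on the zSP arrays, against 8.91 and 8.96 on the zMP arrays, all above the blank range. Aliquots agreed closely, and the difference was -1.33 (-1.37 to -1.30).

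Enzymes that conjugate or supply cofactors had 2 of 8 called, both higher in zSP as were 7.85% of all genes, and a median of 1.11 against -0.20 over all genes. The regulatory subunit of glutathione synthesis gclm and glutathione reductase gsr differed by 1.25 and 1.44 and were not called (both picked after their values were seen). The gene papss2b, for the synthase of the sulfate donor PAPS, had 6.07 and 5.70 on the zSP arrays, against 4.35 and 2.72 on the zMP arrays, neither mean passing the blank range. Its difference was 2.35 (1.34 to 3.35), and 1.53 without zMP replicate 2. The catalytic subunit of glutathione synthesis gclc had 6.12 and 6.61 on the zSP arrays, against 4.23 and 4.58 on the zMP arrays. Its difference was 1.96 (1.54 to 2.38), of uncertain size because the zMP mean lay within the blank range.

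Of 23 listed uptake carriers and non-ABC exporters only 5 were measured, and 3 of them were called higher in zSP, where 7.85% of all genes were. The major vault protein mvp, long linked to drug resistance in human tumours, had 8.29 and 8.23 on the zSP arrays, against 4.84 and 5.15 on the zMP arrays. The difference was 3.26 (3.08 to 3.45), and its probe set is one of those that share sequence with other transcripts. The zMP mean of mvp lay within the blank range, so the size of the difference is uncertain. The organic anion carrier slc22a7b.1 had 8.75 and 8.64 on the zSP arrays, against 5.64 and 6.72 on the zMP arrays, a difference of 2.52 (1.92 to 3.11). It was 1.97 without zMP replicate 1. The zMP mean of slc22a7b.1, 6.18, stood just above the top of the blank range, so the size of this difference is uncertain too. The organic cation carrier slc22a2, a kidney tubule gene in mammals, had 7.57 and 7.24 on the zSP arrays, against 4.69 and 6.14 on the zMP arrays. Its difference of 1.99 (1.1 to 2.88) was 1.27 without zMP replicate 1. The zMP mean of slc22a2 lay within the blank range, so the size is uncertain. The call ended at 1.60 with its probe sets averaged and at 1.83 with quantile normalization applied once more. Most markers of kidney epithelium, of stroma and of thrombocytes and endothelium given above, but not all, were higher on the same zSP arrays. Their part in these 3 differences was not tested.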

How the data were processed

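The deposited log2 levels cover 15617 Affymetrix probe sets and were produced by the authors through RMA (affy), per the submitters' processing notes. Their versions and settings are not given here. RNA had been amplified by 2 rounds of in vitro transcription, per the labels' protocols, which shortens copies towards the 3′ end. All 4 deposited columns were used as deposited. The 115 control probe sets were set aside, and of the other 15502, 10795 carried 1 gene in the platform's annotation, 135 several and 4572 none. Each gene was represented by its brightest probe set on average, which gave 8793 genes. The set was found by the symbols abca to abcg, cyp, gst, mgst, ugt, sult, aldh, nqo1 and ephx. The gene table of the GRCz12tu assembly was used for names and gene order alone, and it held 94 of the 95.

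The members and lists were chosen with earlier results of these data known. Named are every called gene, in each class with none called the 2 largest differences, the 3 brightest of each class, the fixed names abcg2a to abcg2d, abcb4, abcb5, abcc1, abcc2, abcc4, cyp1a and nqo1, and up to 4 called genes of each pathway list. Any other gene with values was picked after its values were seen. Hybridization controls, which are added to the samples, were not counted as blank. Analyses used Python 3.11.15, pandas 2.3.3 and, for cyclic loess, limma 3.58.1 in R 4.3.3. As a check of the code, the rule of size was run on simulated data with known differences and equal noise in all genes. That run does not measure the error of the rule on these arrays. The settings also tried were sizes of 1.5-fold and 3-fold, means in place of pairs, omission of each array, other normalizations, a filter on low levels, other ways to combine probe sets and updated symbols. The number of arrays, 2 per population, limits the precision.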

Additional observations from a re-analysis of the deposited data

How the results depend on the processing

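The 6 genes called higher in zSP and gstm.1 kept their calls under median centring and cyclic loess. Omission of an array only drops pairs that already met the rule, so it could not end a call. Averaging of probe sets and omission of shared-sequence probe sets could not end one either. No called gene had a second probe set or one of the shared-sequence kind. The second quantile normalization lost abcf2a, and at 3-fold cyp3c3 alone was left. Genes higher in zSP numbered 11 at 1.5-fold, 1 at 3-fold and 12 by the difference of means alone, where 11.6%, 4.50% and 14.2% of all genes were. Genes higher in zMP numbered 8, 0 and 5, where 9.66%, 0.694% and 9.22% of all genes were. Omitting an array leaves 2 pairs to satisfy, and the counts were 6 to 12 higher in zSP and 1 to 3 higher in zMP. The higher-zSP counts were 12 and 10 without zSP replicates 1 and 2 and 11 without zMP replicate 1, and the higher-zMP count was 3 in each of these. Among the genes gained, cyp2k22 (1.86), cyp2p10 (1.2) and aldh9a1b (1.35) passed without zSP replicate 1. Without zSP replicate 2, cyp46a1.4 (1.98), cyp27a1.4 (1.26), aldh2.2 (-1.26) and cyp1c1 (-1.16) passed. Without zMP replicate 1, cyp2k22 (1.76), cyp11c1 (-1.24) and cyp26b1 (-1.47) passed. The shares of all genes then were 11.0% to 12.5% and 6.05% to 6.72%. The median difference of the set ranged from -0.26 to -0.15 with 1 array left out. It was 0.0230 after cyclic loess, which put the median of all genes at 0.00, and 0.13 over the 19 genes above the blank range. Of these 19, 5 passed the range through zSP alone and 1 through zMP alone, so that median is shifted by the filter. Genes above the range numbered 29 without the brightest blank control. Taking the range of each population by itself gave 26, an alternative chosen after seeing the data. No paired analysis was possible because the comparison has 1 RNA pool per population and comes from no test. Levels within the blank range limit what 76 of the 95 genes can show.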
